A study of Homo sapiens with 12 samples.

Results

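The genes described here move the nucleoside drug 5-aza-2'-deoxycytidine (5-aza-dC, decitabine) into a cell, activate or inactivate it, or set the deoxynucleotide pools with which it competes. They were the 10 genes DCK, CDA, DCTD, SLC29A1, SLC29A2, SAMHD1, RRM1, RRM2, TK1 and TYMS, of 21157 gene symbols on the array, chosen by name. All probes carrying one of these symbols were taken, which gave 11 of 50599 probes, with SAMHD1 represented by 2 and every other gene by 1. Messenger RNA of Colo320DM, a human colorectal cancer cell line, was measured on 12 one-colour Agilent arrays, in 4 groups of 3 stable clones. Control clones carried the plasmid pcDNA6.2-GW/EmGFP-miR-neg, and TET1 knockdown clones carried a vector expressing an artificial microRNA against TET1, an enzyme that oxidises 5-methylcytosine. All 6 clones had been selected with G418. By the study's methods, knockdown clones 1 and 2 carried the same artificial microRNA and clone 3 a different sequence. For every clone 1 array was made from mock-treated cells and 1 from cells exposed to 1 µM 5-aza-dC for 72 h, with drug and medium renewed daily. A group is thus 3 clones of a single cell line, each measured once per condition, and p-values cover the spread between these clones. Signals are log2 processed intensities minus the 75th percentile of their array, so they can be negative, and they were compared between arrays only, never between probes.

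5-aza-dC is taken up by equilibrative nucleoside transporters of the SLC29 family. Deoxycytidine kinase (DCK) adds the first phosphate, which traps the drug and commits it to activation. Cytidine deaminase (CDA) inactivates the nucleoside, and dCMP deaminase (DCTD) converts deoxycytidine monophosphates to deoxyuridine monophosphates, feeding thymidylate synthase (TYMS). Ribonucleotide reductase, built from the subunits RRM1 and RRM2, makes the natural deoxynucleotides, thymidine kinase 1 (TK1) salvages thymidine, and SAMHD1 hydrolyses deoxynucleoside triphosphates. Once incorporated into DNA during S phase, the drug binds DNA methyltransferases covalently and depletes them.

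The 2 slides that carried the arrays did not hold the groups in equal numbers. On slide 2 were the treated cells of every control clone, together with treated cells of knockdown clone 2 and mock cells of control clone 3. The other 7 arrays were on slide 1, which therefore carried no treated control array. Over all probes, the slide term of a fit with 4 group means passed an adjusted p of 0.05 for 31.6% of 27200 probes (limma, Benjamini-Hochberg), so differences are also given with slide as a block. In a comparison of 2 groups such a difference rests only on the slide that held both groups. Between treated clones this set knockdown clone 2 alone against 3 control clones. For 5-aza-dC in control clones it set 3 treated arrays against mock control clone 3 alone. Between 45.74% and 52.88% of probes were well above background per array, and no spot was saturated. The brightest TET1 probe read 4.56, 4.23 and 4.67 in mock control clones 1 to 3 and 3.59, 3.51 and 3.57 in mock knockdown clones. It read 4.06, 4.42 and 4.16 in treated control clones and 2.98, 4.31 and 3.35 in treated knockdown clones. Treated knockdown clone 2 thus overlapped the treated controls at this probe, while both other TET1 probes were lower in every treated knockdown clone than in any treated control clone. Treated groups did not overlap for 25% of all probes. At the dimmest TET1 probe mock clones overlapped, with -1.14 in knockdown clone 1 and -1.15 in control clone 3. Limma called no TET1 probe between clone types (adjusted p 0.243 to 0.395 in mock and 0.125 to 0.335 in treated clones). Of 8 markers of colorectal epithelium, CDX2, KRT8, KRT18 and KRT20 were well above background on all 12 arrays, CDH17 on 11, EPCAM on 10, VIL1 on 1 and CDH1 on none. Among neuroendocrine markers ENO2 was above background on 11 arrays, CHGA on 4, SYP on 3 and INSM1 on none. Of the 6 markers of leukocytes, fibroblasts and endothelium, PTPRC and COL1A1 were above background on all 12 arrays, LUM on 11, CD68 on 7, and COL1A2 and PECAM1 on none. For 5-aza-dC over all clones limma called 5 of these markers, all higher, namely EPCAM (3.76), ENO2 (3.33), COL1A1 (1.99), CHGA and CD68. With slide as a block EPCAM, ENO2, COL1A1 and CHGA were called again, CD68 was not (adjusted p = 0.0905), and LUM was (adjusted p = 0.0316). Their part in the member values was not tested. These were clonal cultures profiled in bulk, in which fewer expressing cells and less RNA per cell cannot be told apart.

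No gene of the set passed the test in any comparison after adjustment over all probes. Of the 10 members 9 could be tested, because CDA was too dim, and 0 of 9 passed in each of 6 comparisons. The share of all probes that passed was 0.137% between mock clones, 0.096% between treated clones, 5.22% for 5-aza-dC in control clones, 2.04% in knockdown clones, 13.2% over all clones and 0.0366% for the interaction of clone type and treatment. At an unadjusted p of 0.05 the members numbered, in the same order, 0, 1, 1, 1, 4 and 0 of 9, against 11.2%, 19.3%, 26.5%, 9.15%, 32.1% and 2.47% of all probes. With slide as a block, limma also called 0 of 9 in every comparison, where it called 0.113%, 0.244%, 2.13%, 1.86%, 9.1% and 0.0513% of all probes. The count changed with the scale of the arrays. Centred on the array median instead of the 75th percentile, the fit of 5-aza-dC over all clones called DCK, DCTD, SLC29A2, SAMHD1, RRM1 and RRM2 as lower. That scale moved the median of all probes from -0.05 to -0.29, called 31.3% of all probes, and raised the share of calls that were lower from 44.9% to 80.1%. Values on that scale were -0.86 for RRM1, -0.68 for DCTD, SLC29A2 and RRM2, -0.58 for DCK and -0.50 for SAMHD1, to be read against that shift. For 4 of 9 members, RRM1, DCK, DCTD and SAMHD1, every slide 1 array lay above every slide 2 array, and the slides separated in either direction for 26% of all probes. Within both slides 8 of 9 members, all but TK1, had a lower mean after 5-aza-dC, as did 45.1% of all probes. On slide 2 this set 3 treated control arrays against 1 mock control array, on which every sign there rests. On slide 1 it set 2 treated against 3 mock knockdown arrays. The differences on slides 2 and 1 were -0.03 and -0.05 for SAMHD1, and -0.48 and -0.39 for RRM2.

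**Figure D1:**
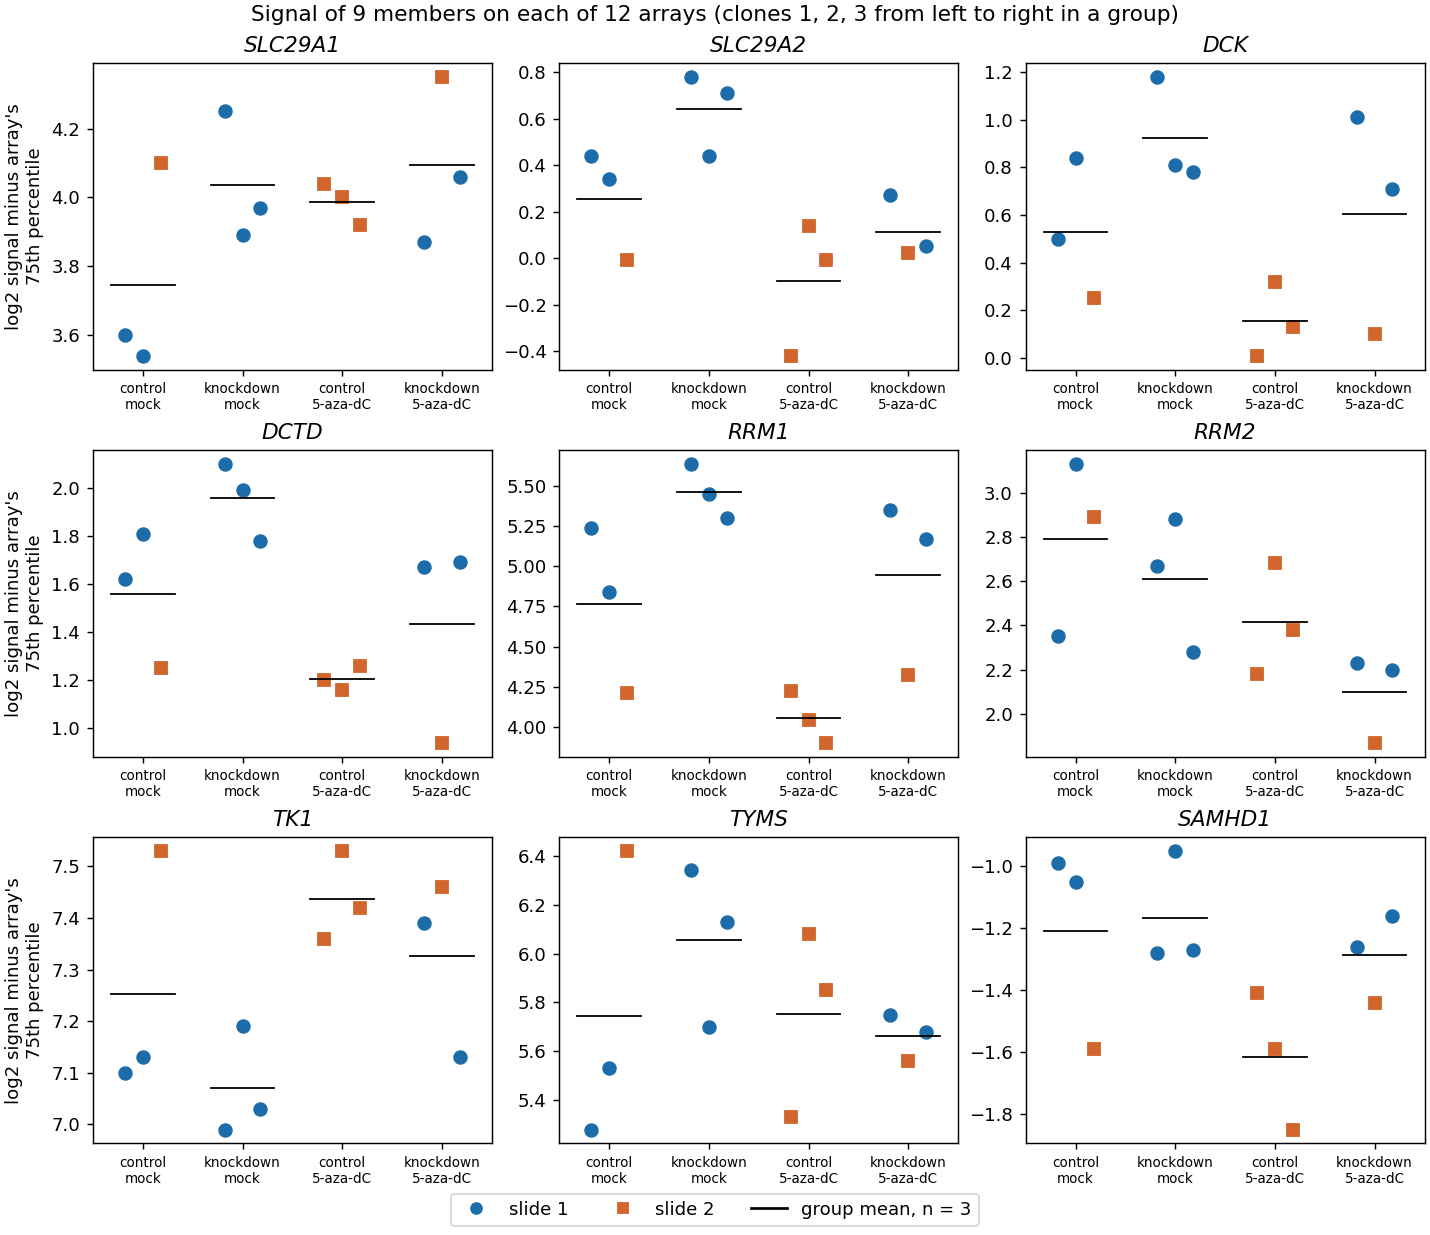
Log2 signal minus the array's 75th percentile (vertical axes, separate scale per gene) of the 9 tested members at their brightest probe on each of 12 arrays. Circles are slide 1, squares slide 2, and lines are means of 3 clones, with clones 1 to 3 from left to right. For RRM1, DCK, DCTD and SAMHD1 every circle lies above every square.

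The transporters are described first. SLC29A1 encodes the equilibrative transporter ENT1, the principal route of nucleoside drugs into many cells. Its signal was 3.60, 3.54 and 4.10 in mock control clones 1 to 3 and 4.25, 3.89 and 3.97 in mock knockdown clones. After 5-aza-dC it was 4.04, 4.0 and 3.92 in control clones and 3.87, 4.35 and 4.06 in knockdown clones. The groups overlapped throughout, and the total range over 12 arrays was 0.82. The difference of mock knockdown from mock control clones was 0.29 (SE 0.23, adjusted p = 0.622), and 0.47 (95% interval 0.04 to 0.90, adjusted p = 0.403) with slide as a block. For 5-aza-dC over all clones the difference was 0.15 (95% interval -0.18 to 0.47, adjusted p = 0.507) and turned to -0.08 with slide as a block.

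SLC29A2 encodes ENT2, a second equilibrative transporter that also carries nucleobases. Its signal was 0.44, 0.34 and -0.01 in mock control clones and 0.78, 0.44 and 0.71 in mock knockdown clones. After 5-aza-dC it was -0.42, 0.14 and -0.01 in control clones and 0.27, 0.02 and 0.05 in knockdown clones. All mock knockdown clones lay at or above the highest mock control clone, and all treated knockdown clones lay below their mock counterparts. In knockdown clones the difference was -0.53 (SE 0.20, unadjusted p = 0.0364, adjusted p = 0.497) and with slide as a block -0.48 (adjusted p = 0.377). Over all clones it was -0.44 (95% interval -0.76 to -0.12, adjusted p = 0.0714), the lowest adjusted p of a member in this fit, and -0.30 (adjusted p = 0.253) with slide as a block. Separation of the groups was common on these arrays, occurring for 21.4% of probes between mock clones and 19.2% in knockdown clones with and without drug.

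DCK, whose product carries out the limiting step of drug activation, read 0.50, 0.84 and 0.25 in mock control clones and 1.18, 0.81 and 0.78 in mock knockdown clones. After 5-aza-dC it read 0.01, 0.32 and 0.13 in control clones and 1.01, 0.10 and 0.71 in knockdown clones. The lowest 5 values were those of slide 2. Slide 1 arrays spanned 0.50 to 1.18 and slide 2 arrays 0.01 to 0.32, with a slide term of -0.59 (adjusted p = 0.0379). Between treated clones the DCK difference was 0.45 (95% interval -0.22 to 1.12, adjusted p = 0.386). With slide as a block, where knockdown clone 2 alone stood against the control clones, it turned to -0.05. For 5-aza-dC over all clones it was -0.34 (adjusted p = 0.218), and -0.05 (95% interval -0.40 to 0.30, adjusted p = 0.879) with slide as a block.

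CDA, the deaminase that degrades the drug, was well above background only on the arrays of treated knockdown clones 1 and 3. Its linear processed signals there were 37.4 and 22.8, and they were between 6.37 and 26.6 on the other 10 arrays. The gene was therefore not tested and no fold is given. DCTD, which acts on the monophosphate, read 1.62, 1.81 and 1.25 in mock control clones and 2.10, 1.99 and 1.78 in mock knockdown clones. After 5-aza-dC it read 1.20, 1.16 and 1.26 in control clones and 1.67, 0.94 and 1.69 in knockdown clones. As for DCK, slide 2 held the lowest 5 values, spanning 0.94 to 1.26 against 1.62 to 2.10 on slide 1 (slide term -0.60, adjusted p = 0.0108). All 3 treated knockdown clones lay below the mock knockdown clones. The difference for 5-aza-dC over all clones was -0.44 (SE 0.17, unadjusted p = 0.0238, adjusted p = 0.103), and with slide as a block it was -0.14 (95% interval -0.40 to 0.12, adjusted p = 0.497).

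SAMHD1, which can also cleave triphosphates of nucleoside drugs, was measured by 2 probes that differed. The brighter probe (A_33_P3406281) read -0.99, -1.05 and -1.59 in mock control clones and -1.28, -0.95 and -1.27 in mock knockdown clones. After 5-aza-dC it read -1.41, -1.59 and -1.85 in control clones and -1.26, -1.44 and -1.16 in knockdown clones. Every slide 1 array exceeded every slide 2 array at this probe, with a slide term of -0.40 (adjusted p = 0.104). The other probe (A_24_P267592) read -1.52, -1.45 and -1.43 in mock control clones and -2.33, -1.33 and -2.02 in mock knockdown clones. Treated arrays read -1.37, -1.60 and -1.37 in control clones and -2.02, -1.28 and -1.82 in knockdown clones. At that probe knockdown clones 1 and 3 were the lowest in both conditions, and clone 2 was the highest. The mock knockdown difference was 0.04 (adjusted p = 0.94) at the brighter probe, turning to -0.15 with slide as a block, and -0.43 (95% interval -1.11 to 0.25, adjusted p = 0.568) at the other. For 5-aza-dC over all clones the probes gave -0.26 (adjusted p = 0.247) and 0.10 (adjusted p = 0.739), and both gave -0.07 with slide as a block (adjusted p = 0.81 and 0.867). In hg19 the brighter probe lies at chr20:35520759-35520818 and the other at chr20:35533804-35533863, both on the minus strand.

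Among tested members the subunits of ribonucleotide reductase had the widest ranges over the 12 arrays, 1.74 for RRM1 and 1.26 for RRM2. RRM1, the large catalytic and allosteric subunit, read 5.24, 4.84 and 4.21 in mock control clones and 5.64, 5.45 and 5.30 in mock knockdown clones. The treated arrays read 4.22, 4.04 and 3.90 in control clones and 5.35, 4.32 and 5.17 in knockdown clones. Knockdown clones exceeded control clones without overlap in both conditions, but the 5 arrays of slide 2 were also the 5 lowest. Slide 1 spanned 4.84 to 5.64 and slide 2 spanned 3.90 to 4.32, and the slide term of -0.89 (unadjusted p = 0.000486, adjusted p = 0.00439) was the largest among members. For 5-aza-dC in control clones the difference was -0.71 (SE 0.29, unadjusted p = 0.045, adjusted p = 0.179), and -0.16 with slide as a block. Without mock control clone 3, the only mock control array on slide 2, RRM1 (-0.99), DCTD (-0.51) and SAMHD1 (-0.60) were called there, with 35.5% of all probes. Over all clones the RRM1 difference was -0.62 (95% interval -1.11 to -0.12, adjusted p = 0.0905), and -0.17 (95% interval -0.49 to 0.14) with slide as a block. Treated knockdown clones differed from treated control clones by 0.89 (SE 0.31, 95% interval 0.15 to 1.64, adjusted p = 0.226). With slide as a block that difference was 0.26, which set treated knockdown clone 2 alone against the 3 treated control clones. Without treated knockdown clone 2, the only treated knockdown array on slide 2, the difference was 1.21 and both DCK and RRM1 were called, with 31.4% of all probes. Either omission leaves each group on a slide of its own, so that slide and group cannot be told apart there. Between mock clones the difference was 0.70 (SE 0.29, adjusted p = 0.449), or 0.43 (95% interval -0.08 to 0.93, adjusted p = 0.456) with slide as a block. The groups did not overlap for 25% of all probes between treated clones.

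RRM2, the small subunit that carries the tyrosyl radical and is made mainly in S phase, read 2.35, 3.13 and 2.89 in mock control clones and 2.67, 2.88 and 2.28 in mock knockdown clones. Treated values were 2.18, 2.68 and 2.38 in control clones and 2.23, 1.87 and 2.20 in knockdown clones. All treated knockdown clones were below all mock knockdown clones, while the control groups overlapped. Its arrays were not ordered by slide, with 2.20 to 3.13 on slide 1 and 1.87 to 2.89 on slide 2 and a slide term of -0.10 (adjusted p = 0.811). The difference for 5-aza-dC over all clones was -0.44 (SE 0.18, 95% interval -0.84 to -0.05, adjusted p = 0.119), and with slide as a block it was -0.39 (95% interval -0.88 to 0.10, adjusted p = 0.292). Within slide 2 the 3 treated control clones differed by -0.48 from the single mock control clone. Within slide 1 the 2 treated knockdown clones differed by -0.39 from the 3 mock knockdown clones. In the same places TYMS differed by -0.66 and -0.34, SLC29A2 by -0.09 and -0.48, and RRM1 by -0.16 and -0.20.

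TK1, the S phase salvage kinase for thymidine, had the narrowest range, 0.54. It read 7.10, 7.13 and 7.53 in mock control clones and 6.99, 7.19 and 7.03 in mock knockdown clones. With the drug the values were 7.36, 7.53 and 7.42 in control clones and 7.39, 7.46 and 7.13 in knockdown clones. The groups overlapped in every comparison. The 5-aza-dC difference over all clones was 0.22 (95% interval -0.06 to 0.50, adjusted p = 0.244) and 0.07 (adjusted p = 0.746) with slide as a block. Its direction turned to -0.02 with the array median as the scale.

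TYMS, the enzyme that makes thymidylate from deoxyuridylate, read 5.28, 5.53 and 6.42 in mock control clones and 6.34, 5.70 and 6.13 in mock knockdown clones. In treated cells it read 5.33, 6.08 and 5.85 in control clones and 5.75, 5.56 and 5.68 in knockdown clones. Mock control clone 3 was the highest array and mock control clone 1 the lowest, so the control groups overlapped fully. The difference for 5-aza-dC was 0.01 (SE 0.35, adjusted p = 0.983) in control clones, -0.66 there with slide as a block, and -0.39 (SE 0.23, adjusted p = 0.667) in knockdown clones. Over all clones it was -0.19 (adjusted p = 0.577), and -0.41 (95% interval -0.98 to 0.16, adjusted p = 0.352) with slide as a block.

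The responses of single clones, as treated minus mock signal, were ordered by slide for several members. Control clone 3 and knockdown clones 1 and 3 had both arrays on the same slide, and control clones 1 and 2 and knockdown clone 2 had theirs on different slides. RRM1 responses were -0.31, -0.29 and -0.13 in the former and -1.02, -0.80 and -1.14 in the latter. DCK responses were -0.11, -0.17 and -0.07 against -0.49, -0.52 and -0.70. For both genes the groups of clones did not overlap, and the larger responses were all measured across slides. At its brighter probe SAMHD1 did not overlap either, with -0.26, 0.01 and 0.11 against -0.42, -0.54 and -0.49. SLC29A1 and TYMS were split as well. The share of all probes split in this way was not counted, so the splits cannot be called particular to these members. The slide term passed an adjusted p of 0.05 for 31.6% of all probes (limma). SLC29A1 gave -0.18, -0.39 and 0.09 on a shared slide against 0.44, 0.46 and 0.47 across slides. TYMS ran the other way from RRM1, with -0.57, -0.59 and -0.45 on a shared slide against 0.06, 0.55 and -0.14. RRM2 showed no such split, with -0.51, -0.44 and -0.08 on a shared slide against -0.17, -0.45 and -1.0. DCK, RRM1 and RRM2 were lower after 5-aza-dC in 6 of 6 clones, as were 17% of all probes. In the 3 clones with a shared slide, DCK, RRM1, RRM2 and TYMS were lower in each, as were 35.9% of all probes.

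**Figure D2:**
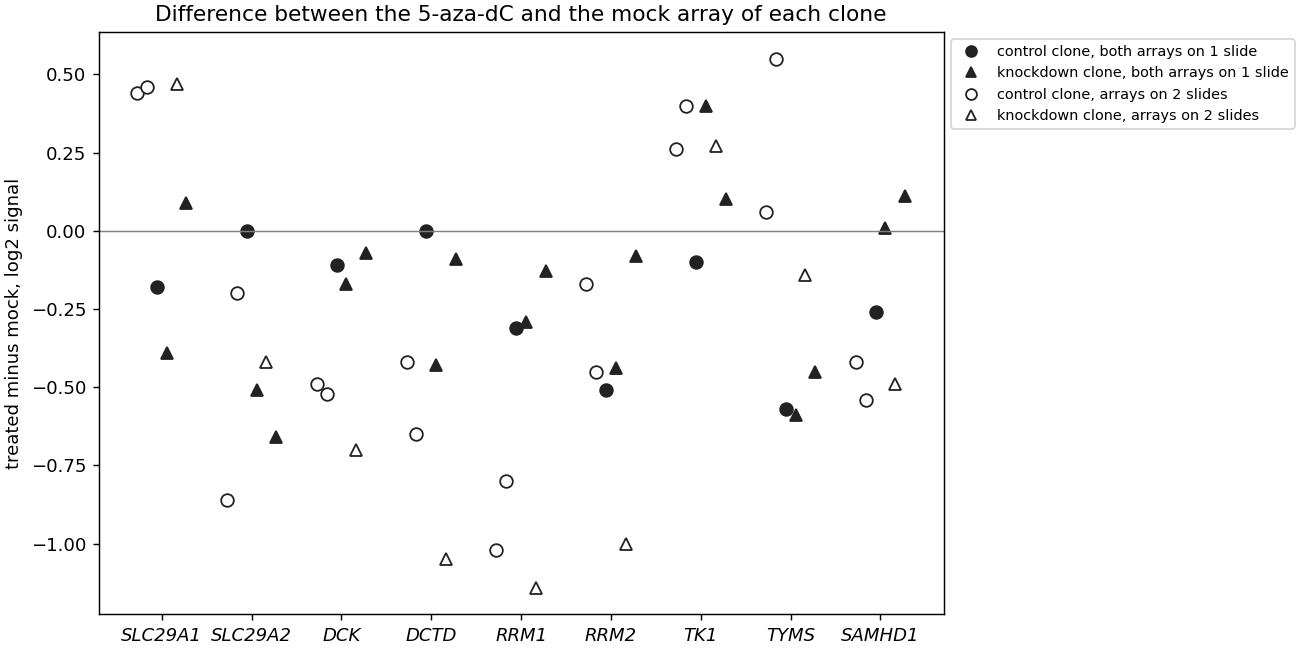
Treated minus mock log2 signal (vertical axis) of each clone for the 9 tested members. Circles are control and triangles knockdown clones, filled where both arrays of the clone lay on 1 slide and open where they lay on 2. For RRM1, DCK and SAMHD1 the open symbols lie below all filled ones. For TYMS the filled symbols lie between -0.59 and -0.45, below all open ones.

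A fit of these 3 clones alone, with the clone as a block, was added after the values had been seen. It gave TYMS a difference of -0.54 (SE 0.09, 95% interval -0.80 to -0.28, unadjusted p = 0.00438), which did not pass adjustment (limma, adjusted p = 0.074). RRM2 differed by -0.34 (95% interval -0.70 to 0.01, adjusted p = 0.191), SLC29A2 by -0.39 (adjusted p = 0.228) and RRM1 by -0.25 (adjusted p = 0.207). DCK differed by -0.12 (95% interval -0.37 to 0.13, adjusted p = 0.447). The fit called 0 of 9 members and 3.51% of 25300 probes. At an unadjusted p of 0.05 it counted 1 member, TYMS, against 27.3% of all probes.

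**Figure D3:**
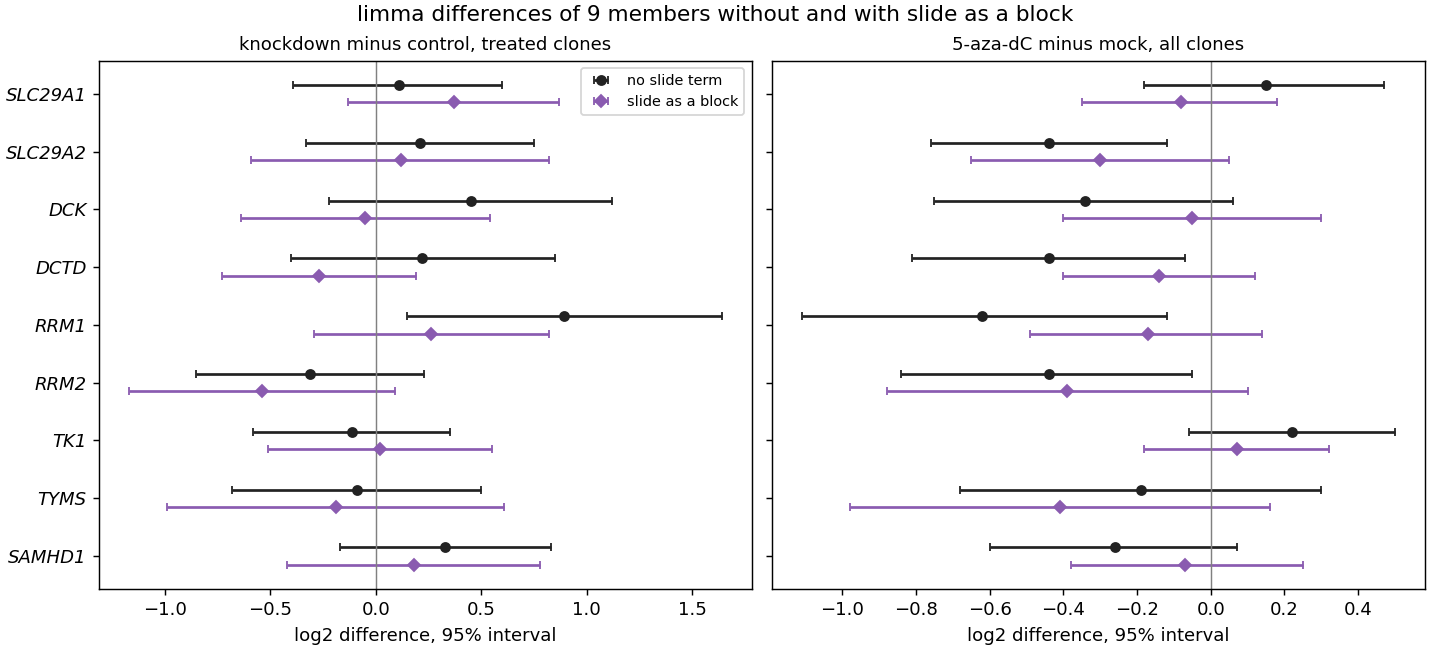
Log2 differences with 95% intervals (horizontal axes) of the 9 tested members, for knockdown minus control among treated clones (left, 6 arrays) and 5-aza-dC minus mock over all clones (right, 12 arrays). Circles are fits without a slide term and diamonds fits with slide as a block. On the left the diamonds set treated knockdown clone 2 alone against 3 treated control clones. The RRM1 difference drops from 0.89 to 0.26 on the left, and on the right the RRM2 value moves from -0.44 to -0.39.

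The clone types were also compared in their response. The interaction, knockdown response minus control response, ranged from -0.41 (TYMS, SE 0.44) to 0.28 (SAMHD1, SE 0.30), and the adjusted p was 1 for each member. In this fit, which did not pair the mock and treated array of a clone, the standard error of the interaction was 0.25 to 0.44. The 95% interval, before adjustment, ran from -0.48 to 0.62 for TK1, the narrowest, and from -0.79 to 1.17 for RRM1. Differences in response within such intervals could not be resolved by this fit at this number of clones. With slide as a block the DCTD interaction was -0.37 (SE 0.19, unadjusted p = 0.0852, adjusted p = 1).

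Correlations between members changed in both directions when slide was taken into account. Over the 12 arrays, Pearson's r was 0.91 between DCK and DCTD, 0.89 between DCK and RRM1 and 0.89 between DCTD and RRM1. After the mean of each slide was subtracted these values were 0.55, 0.32 and 0.26. Others rose, from -0.18 to 0.77 between SLC29A1 and RRM1, from 0.24 to 0.74 between DCK and TYMS, and from 0.35 to 0.65 between SLC29A2 and TYMS. Of 36 pairs, 9 exceeded 0.5 before and 6 after the subtraction, and 1 pair, DCK and DCTD, did so in both. Under -0.5 lay 5 pairs before, all with TK1, and 2 after. The lowest were TK1 with DCTD, at -0.84 before and -0.33 after, and with RRM1, at -0.82 and -0.12. Most slide 2 arrays were of treated cells, so the subtraction also removed part of the treatment difference. The subunits RRM1 and RRM2 were barely correlated, at 0.08 and -0.29. These correlations are descriptions over 12 arrays that share clones and slides. Of 15597 candidate probes, those most like DCK were of DEPDC1B (r = 0.989) and DLGAP5 (r = 0.982), both genes of mitotic cells. After slide means were subtracted, PSMB2 came first at 0.973 and DEPDC1B second at 0.945. TYMS was most like NCAPD2, a condensin subunit, with 0.967 and 0.971 by the same measures. RRM2 was most like TRIOBP (0.912) and, with slide means subtracted, CTSC (0.967). Before that subtraction the first matches of the other members were FAM178A (DCTD), HEATR5B (SLC29A1), ERCC1 (SLC29A2), VGLL4 (SAMHD1), EHBP1 (RRM1) and SNHG5 (TK1). These maxima were high for every member, from 0.912 (RRM2) to 0.989 (DCK).

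RefSeq promoter windows, in the assembly GRCh38.p14, were read for 9 of 10 members, and the 250 bases before each start site were searched. The CCAAT box, common in promoters of S phase genes, was sought as CCAAT on either strand, and E2F sites were sought as TTT, C or G at both next positions, then CGC, on either strand. CCAAT was found in 5 of 13 member windows, those of 4 members (SAMHD1, RRM1, RRM2 and TK1), and in 32% of 35116 windows. The E2F match was found in 1 of 13 member windows, that of TYMS, and in 2.8% of all windows. CpG dinucleotides, the substrate of DNA methylation, numbered between 5 (CDA) and 40 (DCTD) per member window, against a median of 11 over all windows. Methylation of these windows was not measured. The windows of RRM1 and TYMS are shown because these genes had the largest mean response among tested members, RRM1 across slides and TYMS on a shared slide, with the CCAAT box or E2F match in capitals. The RRM1 window is chr11:4094435-4094684 and the TYMS window chr18:657403-657652, both on the plus strand.
RRM1: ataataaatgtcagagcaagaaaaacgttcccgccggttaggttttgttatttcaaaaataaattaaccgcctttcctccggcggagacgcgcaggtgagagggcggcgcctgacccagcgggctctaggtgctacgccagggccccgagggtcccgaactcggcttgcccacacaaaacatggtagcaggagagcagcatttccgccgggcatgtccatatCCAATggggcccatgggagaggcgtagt
TYMS: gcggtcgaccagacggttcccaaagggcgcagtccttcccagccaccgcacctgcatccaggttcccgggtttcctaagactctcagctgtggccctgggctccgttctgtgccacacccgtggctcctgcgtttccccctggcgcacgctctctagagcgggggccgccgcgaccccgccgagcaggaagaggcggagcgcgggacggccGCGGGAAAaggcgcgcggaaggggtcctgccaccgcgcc

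The downstream of the 2 RRM2 windows held 3 CCAAT boxes (2.93% of all windows held 3 or more), at 123, 93 and 66 bases before the start. They are shown in 30 bases each, chr2:10122604-10122633, chr2:10122634-10122663 and chr2:10122661-10122690 on the plus strand, because the flanking letters repeat. The downstream TK1 window held 2, read as ATTGG in the direction of transcription, at chr17:78187112-78187141 and chr17:78187081-78187110 on the minus strand.
RRM2 box at 123: ggcaaggcgcagCCAATgggaagggtcgga
RRM2 box at 93: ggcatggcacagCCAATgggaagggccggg
RRM2 box at 66: ggggcaccaaagCCAATgggaagggccggg
TK1 box at 77: ggccgggcgctgATTGGccccatggcggcg
TK1 box at 46: ggccggctcgtgATTGGccagcacgccgtg

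Other genes of nucleoside transport, salvage and deoxynucleotide synthesis were read from a list of 40, of which 35 could be tested over all clones. Only NT5C2, a cytosolic nucleotidase, was called, with a 5-aza-dC difference of -0.62 (SE 0.14, adjusted p = 0.0186), and -0.49 (adjusted p = 0.0764) with slide as a block. DUT, the dUTPase, had the next lowest p, at -0.73 (SE 0.22, adjusted p = 0.0526), and was -0.31 (adjusted p = 0.239) with slide as a block. The list's median was 0.02 against -0.05 over all probes, and -0.20 against -0.08 with slide as a block. None of the list was called in the other comparisons. Between treated clones CMPK2, a mitochondrial nucleotide kinase, came closest, at -2.23 (SE 0.32, adjusted p = 0.0892), and -2.55 with slide as a block. The adenosine kinase ADK followed at 1.62 (adjusted p = 0.152), and 0.89 with the block. Both block values rest on treated knockdown clone 2 alone. The uptake carriers SLC28A1, SLC28A2 and SLC28A3 were too dim to be tested.

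Genes of cell division are given because RRM2, TK1 and TYMS follow the cell cycle. Of 20 S phase genes, 0 were called by limma for 5-aza-dC over all clones and 4 reached an unadjusted p of 0.05. The replicative helicase subunit MCM7 (-0.57, adjusted p = 0.0515) and the flap nuclease FEN1 (-0.60, adjusted p = 0.0616) had the lowest p. With slide as a block they were -0.37 (adjusted p = 0.228) and -0.21 (adjusted p = 0.223). Of the 20, 15 had a negative difference, and 20 of 20 did with slide as a block, against 54.3% and 59.1% of all probes. Their median was -0.14 without and -0.25 with the block, against -0.05 and -0.08 over all probes. In the 3 clones with a shared slide 19 of 20 were negative, with a median of -0.26 against -0.09. Among 14 mitosis genes only MKI67, the Ki-67 proliferation antigen, was called, and it fell by 0.61 (a log2 difference of -0.61, SE 0.15, adjusted p = 0.0248). Its value was -0.45 (adjusted p = 0.106) with slide as a block. Of the 14, 11 had a negative difference, and 8 did with slide as a block, beside the same 54.3% and 59.1% of all probes. The mitosis median was -0.19 without and -0.06 with the block, against -0.05 and -0.08 over all probes. Of 9 p53 targets, TP53I3 rose by 1.62 (SE 0.32, adjusted p = 0.00855) and the death receptor FAS by 1.16 (SE 0.33, adjusted p = 0.045) over all clones, and BBC3, which encodes PUMA, rose by 0.91 (SE 0.19, adjusted p = 0.0499) in control clones. With slide as a block the adjusted p of TP53I3 and FAS was 0.0611 and 0.218, and neither was called. The BBC3 difference in control clones was 0.90 with the block, against mock control clone 3 alone. Of 8 p53 targets tested over all clones, 5 had a positive difference without the block, with a list median of 0.02. The part of proliferation in the member values was not tested.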

How the data were processed

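Per the file headers, the authors extracted the deposited spot intensity in Feature Extraction 10.7.3.1, correcting the background, and did not normalize it across arrays. Control spots and outlier spots were left out, spots of a probe averaged, and log2 values centred on the array's 75th percentile over probes. Probes well above background on at least 3 arrays of a fit were tested with limma 3.58.1 (two-sided, Benjamini-Hochberg over all probes, threshold 0.05) in R 4.3.3. Comparisons of 2 groups used their 6 arrays, and the mean effect and the interaction used all 12. Values are those of a gene's brightest probe. The members and lists were chosen with earlier results of these data known. Other genes are named if called, or if among the 2 lowest p of a list. Slides were read from the scanner files. The same number in mock and treated arrays is the same clone (correlations of deviations from group means 0.213 to 0.525). Control and knockdown clones of 1 number are different clones. Fits without a slide term were also run on simulated data with independent noise per array. The simulation held no slide or clone effects, so it does not cover their influence on these fits.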

Additional observations from a re-analysis of the deposited data

How the results depend on the processing

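No member was called in any of 6 comparisons, and the count stayed at 0 in 108 of 113 recomputed counts. Among the exceptions, the array median as the scale called 6 members over all clones, with 31.3% of all probes. Normexp and quantile normalization called 1 (SLC29A2) over all clones, with 14.6% of all probes. The methods' t-test, unadjusted, counted 1 (SLC29A2) in knockdown clones, with 9.93% of all probes. Leaving out single arrays gave 0 to 2 members between treated clones, and 0 to 3 for 5-aza-dC in control clones. The highest counts came without treated knockdown clone 2 and without mock control clone 3, which put each group on its own slide. These fits called 31.4% and 35.5% of all probes. With 3 clones per group and intervals that mostly included 0, small changes could not be resolved. The deposited series table, the outlier spots, the filters on dim probes and the fits on all 12 arrays without a slide term turned no difference.

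The clone number as a replicate block, which the pairing of mock and treated arrays of 1 clone allows, left the count at 0. It changed no call of a member, and its lowest adjusted p was that of RRM1 for 5-aza-dC over all clones (-0.62, limma, adjusted p = 0.0581). Between clone types the numbers pair different clones (correlations of deviations -0.029 to 0.089), so blocked values there rest on a shared number only. Of 1023 recomputed log2 differences, 75 changed sign, and all of these were uncalled in both settings. The cause of each change was not tested.

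With slide as a block these were SAMHD1 at -0.15 between mock clones, DCK at -0.05, DCTD at -0.27 and TK1 at 0.02 between treated clones, and SLC29A1 at -0.12, TK1 at -0.09 and TYMS at -0.66 for 5-aza-dC in control clones. SLC29A1 was -0.07 in knockdown clones and -0.08 over all clones, and the interaction was -0.14 for DCK and -0.10 for RRM1. With all 12 arrays and slide as a block they were SAMHD1 at -0.09 between mock clones, DCTD at -0.18, TK1 at 0.09 and TYMS at 0.20 between treated clones, and DCK at 0.02, DCTD at 0.05, SLC29A1 at -0.07, TK1 at -0.02 and TYMS at -0.27 for 5-aza-dC in control clones. In knockdown clones SLC29A1 was -0.10 and SAMHD1 0.01. With the replicate block and slide together they were SAMHD1 at -0.10 and RRM2 at 0.03 between mock clones, DCK at -0.22, DCTD at -0.23 and SLC29A2 at -0.12 between treated clones, and SLC29A1 at -0.18, TK1 at -0.10, TYMS at -0.57 and DCTD and SLC29A2 at 0 in control clones. The same fit gave SLC29A1 -0.15 and SAMHD1 0.06 in knockdown clones, SLC29A1 -0.16 over all clones, and interactions of -0.10 for DCK, 0.03 for SLC29A1 and -0.06 for RRM1. The 3 clones with a shared slide gave SLC29A1 -0.16.

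Quantile normalization gave TK1 0.19 and TYMS 0.09 between treated clones, and -0.05 and -0.07 for 5-aza-dC in control clones. With normexp these were 0.11, 0.13, -0.02 and -0.09. The array median gave TK1 -0.03 and TYMS -0.20 in control clones, SLC29A1 -0.21 and TK1 -0.01 in knockdown clones, and SLC29A1 -0.09 and TK1 -0.02 over all clones. The mean of both SAMHD1 probes was -0.19 between mock clones and 0.03 for 5-aza-dC in knockdown clones.

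When single arrays were left out, sign changes occurred for SAMHD1 between mock clones (-0.15 to 0.15), SLC29A1 (-0.02 to 0.22) and TYMS (-0.30 to 0.07) between treated clones, TYMS in control clones (-0.22 to 0.35) and SLC29A1 in knockdown clones (-0.07 to 0.17). When clones were left out, the interaction ranged from -0.06 to 0.26 for DCK, -0.39 to 0.10 for DCTD, -0.39 to 0.04 for SLC29A1, -0.43 to 0 for SLC29A2, 0 to 0.50 for RRM1, -0.35 to 0.12 for RRM2 and -0.07 to 0.18 for TK1.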
